A study of Homo sapiens with 6 samples.

Results

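The genes described here are 44 genes of the lysosome together with progranulin, the secreted glycoprotein encoded by GRN that is delivered to lysosomes. They were taken from a list of symbols matched to Ensembl identifiers, 44 of the 78657 genes measured, and the rule used no measured value. They comprised GRN with prosaposin (PSAP), sortilin (SORT1) and TMEM106B, 9 cathepsins, and 16 other hydrolases (glycosidases, sulfatases, lipid hydrolases, phosphatases and a peptidase). The other members were 8 lysosomal membrane proteins, 3 proteins of the proton pump, 2 mannose 6-phosphate receptors, and 2 transcription factors, TFEB and TFE3.

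PTX4-OE libraries came from THP-1 cells stably transduced with a PTX4 overexpression construct (n = 3), and EV libraries from THP-1 cells stably transduced with an empty vector (n = 3). THP-1 is a human monocytic leukaemia line, and PTX4 encodes a member of the pentraxin family. All 6 libraries were poly(A)-selected bulk RNA-seq, given as biological replicates of one batch in the labels. The promoter of the construct, and whether each line was a clone or a pool, are not stated in the labels. Other differences between the transduced lines therefore cannot be told apart from an effect of PTX4. The comparison asks which genes differ in RNA level between PTX4-OE and EV cells. Among the genes described here, it asks whether GRN differed as the enzymes and membrane proteins of the lysosome did.

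Lysosomal hydrolases are made in the endoplasmic reticulum and tagged in the Golgi with mannose 6-phosphate, and the receptors M6PR and IGF2R carry them to endosomes. They work in the acid made by the vacuolar proton pump. Progranulin reaches lysosomes through sortilin or in company with prosaposin, and proteases cut the precursors into granulins and saposins. Monocytes and macrophages are rich in lysosomes, and TFEB and TFE3 bind a palindromic DNA motif, the CLEAR element, near many lysosomal genes.

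Promoter windows of 250 bases before and 50 after the annotated start were taken from RefSeq (GRCh38.p14) and were found for 34 of the 44 genes, in 51 windows. Those of GRN and of GAA, MCOLN1 and IGF2R are shown, since GRN is the gene the results turn on and the windows of the other 3 each hold, in at least 1 place, the CLEAR palindrome in its longest form, with G before and C after the letters in capitals. Each is written 5′ to 3′ on the plus strand, which is the strand of all 4 genes. Capitals mark CACATGA in GRN, the reverse complement of TCATGTG, and TCACGTGA in the other 3. The windows are chr17:44345052-44345351 for GRN, chr17:80101331-80101630 for GAA, chr19:7522374-7522673 for MCOLN1 and chr6:159968832-159969131 for IGF2R.
GRN: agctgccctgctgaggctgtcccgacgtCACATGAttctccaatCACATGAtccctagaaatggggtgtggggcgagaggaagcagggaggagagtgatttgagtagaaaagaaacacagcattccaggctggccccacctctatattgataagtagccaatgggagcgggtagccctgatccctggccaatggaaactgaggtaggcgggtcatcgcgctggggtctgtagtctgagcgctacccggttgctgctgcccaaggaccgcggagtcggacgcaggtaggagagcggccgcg
GAA: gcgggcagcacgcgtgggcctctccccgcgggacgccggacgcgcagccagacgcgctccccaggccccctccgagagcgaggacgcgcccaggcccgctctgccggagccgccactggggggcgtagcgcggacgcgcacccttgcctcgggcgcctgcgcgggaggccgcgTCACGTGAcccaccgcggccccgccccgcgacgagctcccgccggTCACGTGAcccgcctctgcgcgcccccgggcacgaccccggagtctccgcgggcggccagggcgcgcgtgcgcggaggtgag
MCOLN1: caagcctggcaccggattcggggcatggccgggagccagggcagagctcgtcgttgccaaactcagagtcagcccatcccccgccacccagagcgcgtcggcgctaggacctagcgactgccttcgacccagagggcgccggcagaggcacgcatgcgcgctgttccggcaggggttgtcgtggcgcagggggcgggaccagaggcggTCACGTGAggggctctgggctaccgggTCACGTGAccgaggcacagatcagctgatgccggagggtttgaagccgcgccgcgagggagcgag
IGF2R: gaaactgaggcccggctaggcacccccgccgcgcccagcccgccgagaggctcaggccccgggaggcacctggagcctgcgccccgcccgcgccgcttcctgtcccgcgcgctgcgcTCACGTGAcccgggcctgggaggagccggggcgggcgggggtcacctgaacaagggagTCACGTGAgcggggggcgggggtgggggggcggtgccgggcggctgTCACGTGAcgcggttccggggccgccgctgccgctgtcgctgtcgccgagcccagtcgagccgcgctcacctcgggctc

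The GRN window held CACATGA with its first base at -222 and again at -206 from the start, and had no match to CACGTG, the core of the palindrome. Both strands were searched for 4 motifs, of which the first 3 lie inside one another. The 6-letter core stood in 27.5% of the member windows and in 7.26% of all 35116 windows. The core with a T before it, TCACGTG, stood in 23.5% of the member windows and in 3.71% of all windows. Its 11 genes were ARSB, ATP6V0D1, CLN3, CTSA, CTSD, GAA, IGF2R, LAMP1, M6PR, MCOLN1 and NEU1. The longest form stood in 5.88% of the member windows and in 0.353% of all windows. The one-base variant TCATGTG stood in 13.7% of the member windows and in 2.92% of all windows, and its 7 genes were ACP5, CD63, CTSA, GRN, PPT1, SCARB2 and TPP1. These matches describe letters in the windows and not binding.

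PTX4 was at 702.5, 474.7 and 444.0 TPM (a level scaled for gene length and library total) in PTX4-OE libraries, against 0, 0.11 and 0.13 TPM in EV libraries. The libraries therefore matched their labels, and the groups did not overlap (log2 fold change 12.70, edgeR's quasi-likelihood test, adjusted p = 4.418e-04). Depth was 31078642 to 37718207 expected counts in PTX4-OE libraries and 29670641 to 32691577 in EV libraries. Mitochondrially encoded genes held 2.79%, 5.39% and 4.97% of counts in PTX4-OE libraries and 4.75%, 5.91% and 5.51% in EV libraries, so PTX4-OE replicate 1 was the lowest. The 15 monocyte markers summed to 738.2 to 872.2 TPM in PTX4-OE libraries and 771.6 to 870.5 TPM in EV libraries. In every library 5 of 10 B and T cell markers (MS4A1, CD3D, CD3E, CD3G and CD2) and 5 of 10 fibroblast and epithelial markers (COL1A2, COL3A1, DCN, EPCAM and KRT19) were at 0. The first list summed to 7.48 to 8.1 TPM in PTX4-OE libraries and 5.63 to 7.01 TPM in EV libraries, without overlap. Its 5 tested genes all had positive log2 fold changes. EdgeR called 0 of them with or without replicate number in the fit, and PAX5 had the smallest p (edgeR adjusted p = 0.0668 with it). The second list summed to 1.59 to 2.29 TPM in PTX4-OE libraries and 1.27 to 2.2 TPM in EV libraries.

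With replicate number in the fit, GRN RNA was lower in PTX4-OE cells (0.829-fold). Without it GRN was not called, and no other lysosomal gene was called in either fit. Across the 44 genes, 42 passed the filter on low counts. Without the replicate number in the fit, edgeR called 0 members higher and 0 lower, against 0.00567% of all 17627 genes tested called higher and 0.0% lower. At an unadjusted p under 0.05 that fit had 0 members in either direction, against 0.238% of all genes higher and 0.505% lower, and DESeq2 and limma-voom also called 0. With replicate number as a block, 1 member, GRN, was called lower and 0 were called higher, against 0.233% of all genes lower and 0.0284% higher. Replicate numbers are those of the labels, where nothing says what a number stands for. They were taken to pair the libraries because same-numbered libraries deviated together from their group means, though only weakly for number 2 (correlation 0.13).

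GRN (ENSG00000030582.19, chr17:44345246-44353106, plus strand, GRCh38, overlapped by no other annotated gene) was at 192.1, 168.1 and 156.5 TPM in PTX4-OE replicates 1, 2 and 3, against 216.5, 208.9 and 182.8 TPM in EV replicates 1, 2 and 3. The PTX4-OE library was the lower one at each number, but the groups overlapped, since PTX4-OE replicate 1 lay above EV replicate 3. The means were 172.2 ± 18.1 TPM in PTX4-OE cells and 202.8 ± 17.7 TPM in EV cells (SD, n = 3 each). The log2 fold change was -0.27 in both fits. Its 95% interval ran from -0.38 to -0.16 with the block (SE 0.050, edgeR adjusted p = 0.0343), and from -0.60 to 0.06 without it (SE 0.140, unadjusted p = 0.0959, edgeR adjusted p = 1.0). Within replicate numbers 1, 2 and 3 the log2 differences were -0.195, -0.351 and -0.268. By this measure 16 of the 42 tested members (38.1%) were lower in PTX4-OE at all 3 numbers, against 14.1% of all genes. The reverse held for 3 members (7.14%), against 16.4% of all genes. In bulk RNA, fewer cells that express GRN and less GRN RNA per cell cannot be told apart.

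The GRN call was lost without pair 2 and in the limma fits on TPM. Pair 2 is also the pair whose libraries deviated together least (correlation 0.13). Without replicate number 2 the log2 fold change with the block was -0.23 (edgeR adjusted p = 0.277). Without replicate number 1, whose PTX4-OE library had the lowest mitochondrial share, it was -0.31 (edgeR adjusted p = 0.00331), and without number 3 it was -0.28 (edgeR adjusted p = 0.00275). On log2(TPM + 1) and log2(TPM + 0.1) with the block, where the test and the filter (14676 genes) differed as well as the scale, limma gave log2 fold changes of -0.24 and -0.24, with adjusted p = 0.437 and 0.443. The edgeR fit without the block on all libraries did not call GRN. Among the other settings, GRN was called in 8 of 11 with the block and in 0 of 12 without it. Its log2 fold change was negative in each of them, from -0.31 to -0.23 with the block and from -0.36 to -0.18 without it. Among the 41 genes called lower with the block, whose median log2 fold change was -0.478, GRN had the 3rd smallest fall and was 31st by p.

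**Figure D1:**
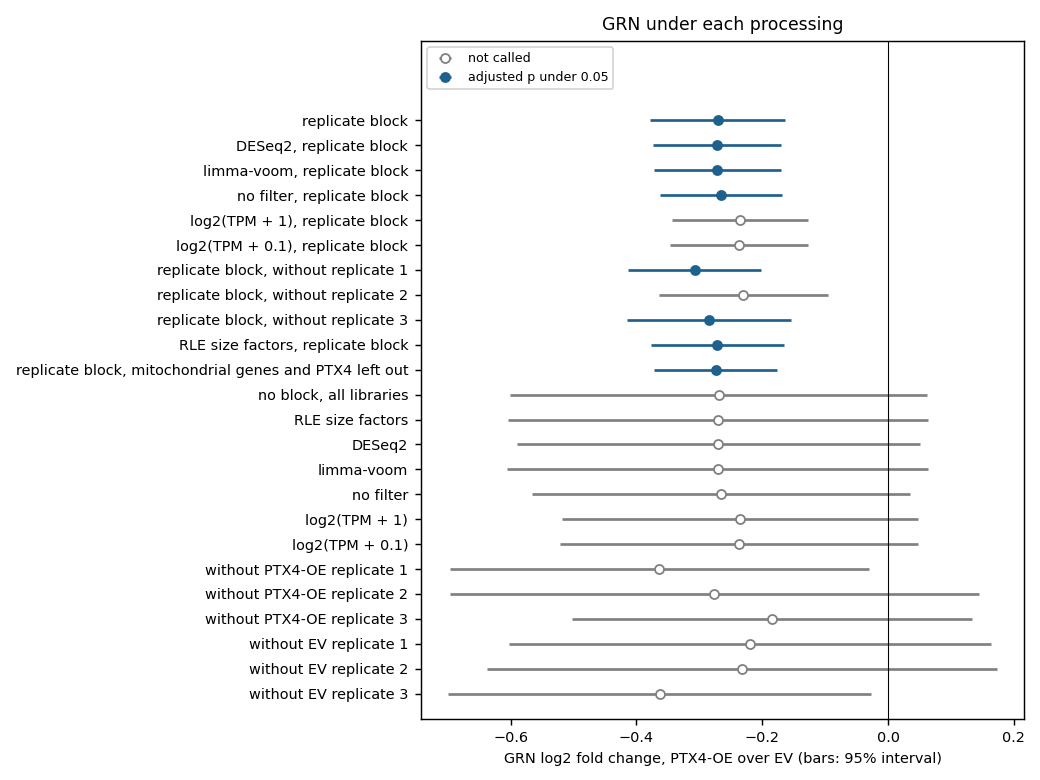
Log2 fold change of GRN, PTX4-OE over EV, under each processing (points), with 95% intervals (bars), where filled points mark an adjusted p under 0.05. All points lie left of 0, between -0.36 and -0.18, and the 8 filled points are all fits with the replicate block.

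Other measures moved with the same comparison. Over all genes tested with the block, 0.233% were called lower by edgeR, 4.42% were lower at an unadjusted p under 0.05 and 48.1% had negative values. With the block, 2 of 14 tested monocyte markers were called lower (5 at an unadjusted p under 0.05), CSF1R, the receptor for macrophage colony-stimulating factor (log2 fold change -0.30, edgeR adjusted p = 0.0387), and MNDA, a nuclear protein of myeloid cells (-0.52, edgeR adjusted p = 0.00103). Of the 14 markers, 10 had negative and 4 positive values. MPO, the myeloperoxidase of neutrophil granules, was also lower (-0.54, edgeR adjusted p = 0.00813). It was at 4.86, 5.78 and 4.07 TPM in PTX4-OE libraries and 6.61, 8.39 and 5.82 TPM in EV libraries. It was the 1 gene called of 5 tested in its list, where 4 values were negative and that of ELANE was positive (0.05). That list summed to 4808.7 to 5991.6 TPM in PTX4-OE libraries and 4703.7 to 6039.4 TPM in EV libraries. Of 13 mitochondrial mRNAs all 13 had negative values, 10 were lower at an unadjusted p under 0.05 and 1 was called by edgeR, MT-ND1 (-0.52, edgeR adjusted p = 0.0387). With the block limma-voom called 3 of them, MT-ND1, MT-ND4 and MT-CO2. The 13 summed to 64573.7 to 118750.7 TPM in PTX4-OE libraries and 106991.2 to 131320.3 TPM in EV libraries. Without the block, CSF1R, MNDA, MPO and MT-ND1 were not called by edgeR, DESeq2 or limma-voom, and CSF1R was not called by DESeq2 with it. No gene of the macrophage maturation list (8 tested, 163.9 to 226.2 TPM summed in PTX4-OE and 160.4 to 229.0 TPM in EV) was called by edgeR in either fit, with 1 lower at an unadjusted p under 0.05 with the block and 0 without it. With mitochondrial genes and PTX4 left out of the table before scaling, GRN had a log2 fold change of -0.27 with the block (edgeR adjusted p = 0.0223). Whether myeloid state has a part in the GRN value was not tested.

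PSAP, the precursor of the saposins that activate sphingolipid hydrolases, was at 140.0, 122.8 and 142.4 TPM in PTX4-OE libraries, against 142.8, 121.7 and 138.4 TPM in EV libraries. The groups lay on top of each other, and its log2 fold change with the block was -0.03 (95% interval -0.13 to 0.08). TMEM106B, a lysosomal membrane protein linked to frontotemporal dementia, was at 17.3, 15.3 and 20.4 TPM in PTX4-OE libraries, against 15.7, 16.5 and 19.6 TPM in EV libraries. Its groups also overlapped, with a log2 fold change of -0.02 (95% interval -0.14 to 0.10). SORT1, the sorting receptor that binds progranulin, was near the limit of detection, at 0.18, 0.12 and 0.21 TPM in PTX4-OE libraries, against 0.07, 0.13 and 0.22 TPM in EV libraries. That was 19 to 41 expected counts in PTX4-OE libraries and 12 to 38 in EV libraries, and the interval of its log2 fold change was wide (0.29, from -0.49 to 1.08).

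**Figure D2:**
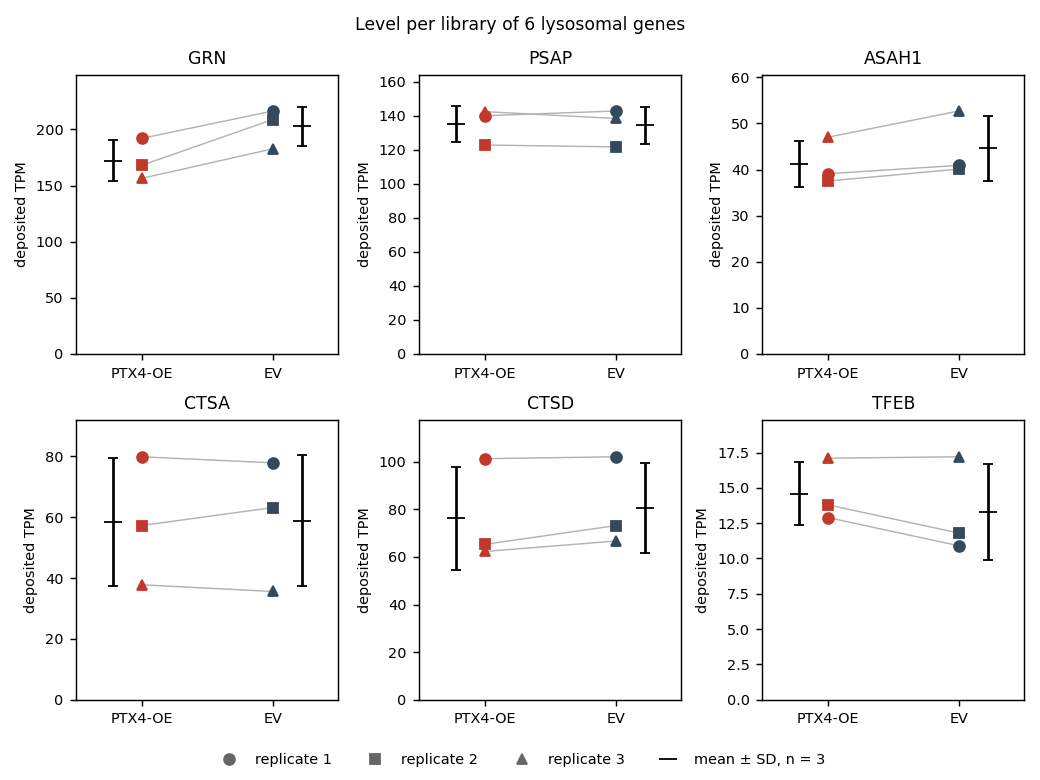
Deposited TPM per library of 6 lysosomal genes in PTX4-OE (left, red) and EV (right, dark) cells, with lines joining libraries of the same replicate number and black marks for the mean and SD (n = 3). GRN lay lower in PTX4-OE at each number, PSAP did not separate, and all 6 genes, GRN included, differed more between numbers 1 and 3 than between groups.

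The 9 cathepsins, the main lysosomal proteases, summed to 596.2, 482.5 and 490.3 TPM in PTX4-OE libraries, against 600.8, 511.2 and 495.2 TPM in EV libraries, a ratio of means of 0.976. Of the 9, 7 had negative and 2 positive values with the block (median -0.09, against 0.005 over all genes tested). EdgeR, DESeq2 and limma-voom called 0 with or without it, and 3 were lower in edgeR at an unadjusted p under 0.05 with the block (4.42% of all genes) and 0 without it (0.505% of all genes). CTSC, the dipeptidase that activates granule serine proteases, was at 115.5, 92.9 and 79.0 TPM in PTX4-OE libraries, against 119.0, 104.0 and 77.4 TPM in EV libraries. CTSL, an endopeptidase, was at 84.5, 79.6 and 80.4 TPM in PTX4-OE libraries, against 86.8, 76.6 and 74.3 TPM in EV libraries. Neither pair of groups separated, and their log2 fold changes with the block were -0.11 ± 0.05 for CTSC and 0.00 ± 0.05 for CTSL (estimate ± SE). CTSZ, a carboxypeptidase named after its values were seen, had the cathepsins' smallest p (-0.16 ± 0.05, edgeR adjusted p = 0.337). CTSK, the collagenase of osteoclasts, was the least abundant, at 1.0 to 1.71 TPM in PTX4-OE libraries and 1.17 to 1.64 TPM in EV libraries.

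The 16 other hydrolases summed to 2037.3, 1785.5 and 1615.3 TPM in PTX4-OE libraries, against 1998.1, 1893.4 and 1674.9 TPM in EV libraries, a ratio of means of 0.977. Most of that was PPT1, the palmitoyl-protein thioesterase that removes fatty acids from proteins. It was at 1439.3, 1225.0 and 1063.5 TPM in PTX4-OE libraries, against 1381.5, 1303.1 and 1126.0 TPM in EV libraries. The groups overlapped throughout (log2 fold change with the block -0.07, 95% interval -0.21 to 0.06). MAN2B1, the lysosomal alpha-mannosidase, was at 121.7, 99.8 and 84.9 TPM in PTX4-OE libraries, against 118.5, 112.0 and 93.1 TPM in EV libraries, and its groups overlapped too (-0.12 ± 0.05, edgeR adjusted p = 0.526 with the block).

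Of the 14 hydrolases tested, 12 had negative and 2 positive values with the block (median -0.08), against 48.1% negative over all genes. EdgeR, DESeq2 and limma-voom called 0 of them in either form, and 4 were lower in edgeR at an unadjusted p under 0.05 with the block, against 4.42% of all genes, and 0 without it, against 0.505%. The smallest p-values after GRN were those of 2 hydrolases of sphingolipids, named after their values were seen. ASAH1, acid ceramidase, was at 39.1, 37.5 and 47.0 TPM in PTX4-OE libraries, against 40.9, 40.1 and 52.7 TPM in EV libraries (-0.18 ± 0.05, edgeR adjusted p = 0.205 with the block). ARSA, arylsulfatase A, was at 14.7, 14.4 and 18.0 TPM in PTX4-OE libraries, against 15.8, 16.4 and 19.4 TPM in EV libraries (-0.21 ± 0.06, edgeR adjusted p = 0.255 with the block). Both were lower in PTX4-OE at each replicate number, with overlapping groups. In normalised CPM 38.1% of the tested members were lower at each number, against 14.1% of all genes. TPP1, a tripeptidyl peptidase, was the 1 member with every PTX4-OE library below every EV library in normalised CPM, against 2.04% of all genes, and 0 members had the reverse order, against 2.07%. In TPM its groups overlapped, at 82.8, 89.0 and 96.2 in PTX4-OE libraries and 90.2, 96.8 and 97.1 in EV libraries. SGSH, the heparan sulfamidase, had 0 to 1 expected counts in PTX4-OE libraries and 0 to 3 in EV libraries, and ACP5, tartrate-resistant acid phosphatase, had 1 to 7 and 1 to 12, so neither was tested. SGSH is overlapped by CARD14 and SLC26A11 in the annotation.

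The 8 membrane proteins summed to 809.9, 667.2 and 661.1 TPM in PTX4-OE libraries, against 789.6, 694.8 and 659.0 TPM in EV libraries, a ratio of means of 0.998. LAPTM5, a lysosomal protein of blood cells, was at 217.6, 178.6 and 188.7 TPM in PTX4-OE libraries, against 206.2, 184.2 and 190.8 TPM in EV libraries. CD63, a tetraspanin of late endosomes, was at 214.2, 172.3 and 161.7 TPM in PTX4-OE libraries, against 214.3, 179.5 and 169.6 TPM in EV libraries. For both genes the groups overlapped, with log2 fold changes with the block of -0.03 (95% interval -0.14 to 0.08) for LAPTM5 and -0.07 (95% interval -0.17 to 0.03) for CD63. LAMP1, LAMP2, SCARB2, MCOLN1, CD68 and CLN3 lay between -0.07 and 0.09, and 6 of the 8 genes had negative values. None of the 8 reached an unadjusted p under 0.05 in edgeR in either fit, nor did any gene of the pump, receptor and transcription factor groups. The widest interval of the 8 was that of MCOLN1, a calcium-permeable channel of the lysosome (-0.09 to 0.27).

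Acidification and delivery genes did not separate either. ATP6AP1, an accessory protein of the pump, was at 95.6, 83.5 and 88.9 TPM in PTX4-OE libraries, against 95.3, 83.5 and 87.7 TPM in EV libraries. ATP6V1H, a subunit of its cytosolic domain, was at 54.8, 51.4 and 51.4 TPM in PTX4-OE libraries, against 52.2, 50.0 and 55.4 TPM in EV libraries. With the block their 95% intervals ran from -0.13 to 0.07 and from -0.14 to 0.08 in log2 fold change. M6PR, the smaller, cation-dependent receptor for mannose 6-phosphate, was at 108.4, 84.3 and 79.5 TPM in PTX4-OE libraries, against 103.7, 92.8 and 84.6 TPM in EV libraries. IGF2R, the larger receptor, was at 46.4, 38.2 and 42.5 TPM in PTX4-OE libraries, against 40.5, 36.1 and 38.3 TPM in EV libraries. IGF2R was higher in PTX4-OE at each number and M6PR at 1 of the 3 numbers, and neither was called (log2 fold changes with the block 0.10 and -0.09, edgeR adjusted p = 0.602 and 0.674).

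TFEB, the main activator of lysosomal genes, was at 12.9, 13.8 and 17.1 TPM in PTX4-OE libraries, against 10.9, 11.8 and 17.2 TPM in EV libraries. TFE3, its relative, was at 16.6, 16.1 and 20.8 TPM in PTX4-OE libraries, against 15.7, 16.4 and 21.3 TPM in EV libraries. The groups overlapped for both, and the log2 fold changes with the block were 0.11 (95% interval -0.04 to 0.26) for TFEB and -0.03 (95% interval -0.15 to 0.09) for TFE3. RNA levels do not show where these factors lie in the cell, on which their activity depends. The 11 tested genes with TCACGTG in a promoter window had a median log2 fold change of -0.02 with the block, and the 22 tested genes with a window and without it had a median of -0.05.

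Over the 42 tested members, 32 had negative values with the block (76.2%, against 48.1% of all genes tested), with a median of -0.04 against 0.005. Without the block 33 were negative (78.6%, against 47.0%), with a median of -0.04 against 0.008. At an unadjusted p under 0.05 with the block, 8 members were lower (GRN, CTSC, CTSD, CTSZ, ASAH1, MAN2B1, ARSA and TPP1; 4.42% of all genes) and 0 were higher (4.36% of all genes). With the block, 40 members (95.2%, against 71.3% of all genes) had a 95% interval that stayed under a 1.5-fold change up or down, and 35 (83.3%, against 52.6%) had one without it. Differences beyond that size were thus outside the interval for most members. The 44 genes summed to 4175.3, 3563.7 and 3419.5 TPM in PTX4-OE libraries, against 4125.0, 3772.5 and 3503.8 TPM in EV libraries, with a ratio of means of 0.979. Within replicate numbers 1, 2 and 3 the members' median log2 difference was -0.02, -0.08 and -0.041, and with the block it was -0.066, -0.029 and -0.057 without pair 1, 2 and 3. Without the block, where leaving out 1 library unbalances the replicate numbers, it was 0.013 without PTX4-OE replicate 3 and 0.005 without EV replicate 1.

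**Figure D3:**
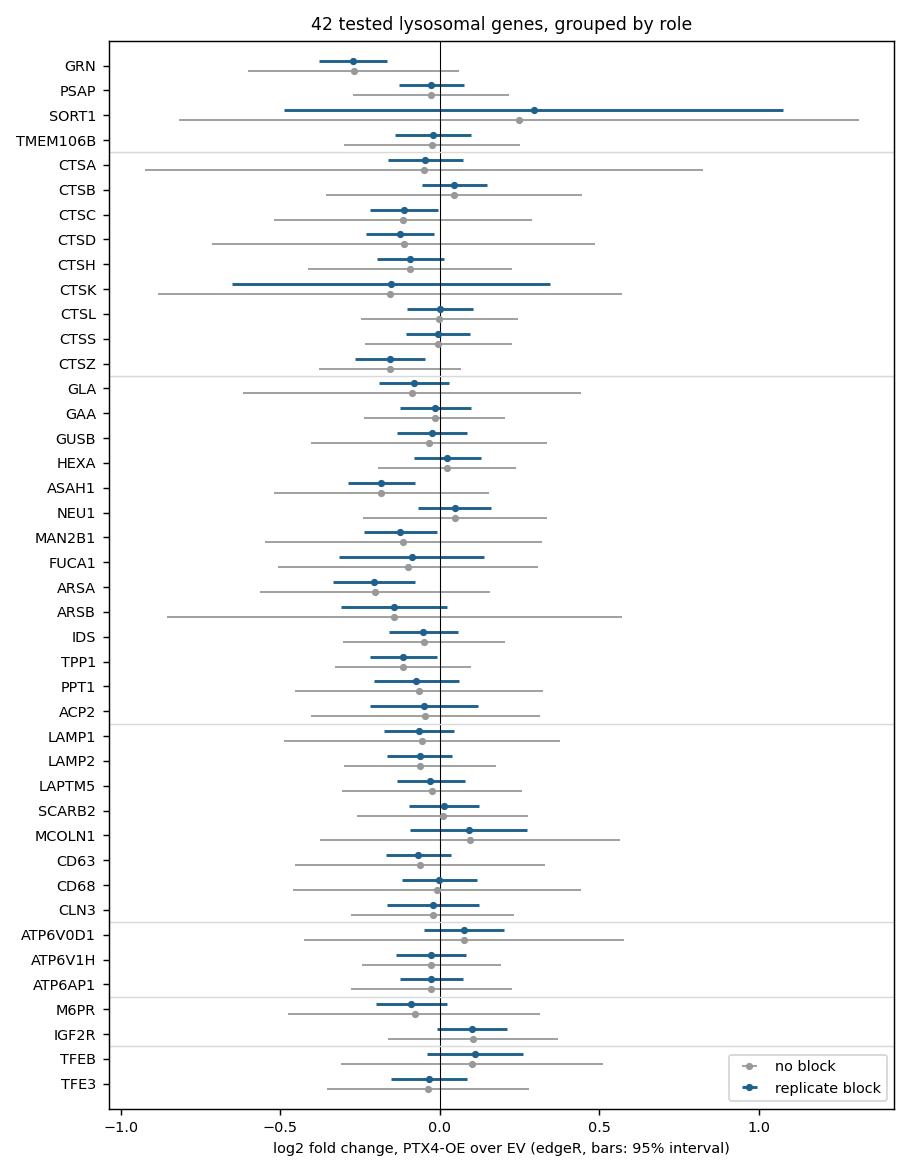
Log2 fold change, PTX4-OE over EV, of the 42 tested lysosomal genes in their role groups (points, edgeR), with 95% intervals (bars), with the replicate block (blue) and without it (grey). The blue interval of GRN lies from -0.38 to -0.16, and most other genes lie within 0.2 of 0 in either direction with much wider grey intervals.

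GRN was then set against each class within the same library, which removes the library's scale. The ratio of GRN to PSAP was 1.37, 1.37 and 1.1 in PTX4-OE libraries, against 1.52, 1.72 and 1.32 in EV libraries. It was lower in PTX4-OE at each number, with overlapping groups. A two-sided exact permutation test that ignored the replicate numbers gave p = 0.3, where 3 against 3 allows no p under 0.1. The order within replicate numbers was not tested. GRN over the cathepsin sum was 0.322, 0.348 and 0.319 in PTX4-OE libraries, against 0.36, 0.409 and 0.369 in EV libraries. GRN over the sum of the 16 hydrolases was 0.0943, 0.0941 and 0.0969 in PTX4-OE libraries, against 0.108, 0.11 and 0.109 in EV libraries. GRN over the membrane protein sum was 0.237, 0.252 and 0.237 in PTX4-OE libraries, against 0.274, 0.301 and 0.277 in EV libraries.

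For each of the 3 class ratios, every PTX4-OE library lay below every EV library, although the groups overlapped for GRN TPM itself. That order held for 0.738% of all genes over the cathepsin sum, 0.874% over the hydrolase sum and 1.04% over the membrane protein sum. Of the other 41 tested members, it held for 0, 0 and 1 (CTSZ). The members of a class are part of that class's own sum, which damps their ratio, and GRN is in none of the sums. These counts are therefore not a like comparison with GRN. Since PPT1 makes up most of the hydrolase sum, the ratio was taken again without it, and was 0.321, 0.3 and 0.284 in PTX4-OE libraries, against 0.351, 0.354 and 0.333 in EV libraries, again without overlap. These ratios were chosen with earlier values known, and those over the sums were not tested. They describe how GRN stood against the sums in these libraries, and not whether GRN or the sums changed.

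**Figure D4:**
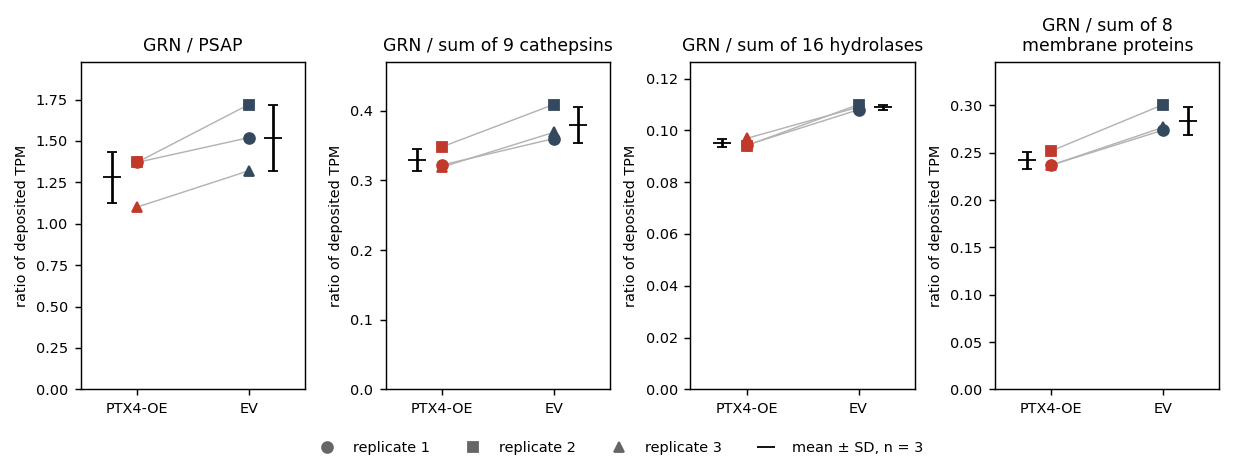
Ratio of GRN TPM to PSAP TPM and to the summed TPM of 9 cathepsins, 16 hydrolases and 8 membrane proteins, per library, in PTX4-OE (left, red) and EV (right, dark) cells, with lines joining libraries of the same replicate number and black marks for the mean and SD (n = 3). The groups overlap for PSAP and do not overlap for the 3 sums, where the PTX4-OE values are lower.

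Most lysosomal genes, like most genes tested, differed more between replicate numbers 1 and 3 than between PTX4-OE and EV. The difference between numbers was taken only from the libraries numbered 1 and 3, and that between groups from all libraries. The sizes are therefore not a like comparison. The median size of the log2 difference between numbers 1 and 3 was 0.306 over the members, against 0.067 for the difference between groups, and over all genes tested these were 0.369 and 0.079. The difference between numbers was the larger for 39 of 42 members (92.9%, against 84.3% of all genes). GRN was one of the 39, with 0.357 between numbers 1 and 3 and -0.271 between groups. Both libraries numbered 1 lay above both numbered 3 for 29 members (69.0%, against 37.3% of all genes) and below them for 10 members (23.8%, against 39.1%).

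The members with the widest such differences were named after their values were seen. CTSA, the protective protein of the galactosidase and neuraminidase complex, was at 79.9, 57.3 and 37.8 TPM in PTX4-OE replicates 1, 2 and 3, against 77.9, 63.2 and 35.6 TPM in EV replicates 1, 2 and 3. CTSA is overlapped by NEURL2 and PLTP in the annotation, so its reads are less certain. Numbers 1 and 3 differed by 2.27-fold, while the log2 difference between groups was -0.04. CTSD, an aspartic protease, was at 101.3, 65.3 and 62.3 TPM in PTX4-OE libraries, against 102.1, 73.2 and 66.7 TPM in EV libraries, 1.67-fold between numbers 1 and 3. The 10 genes lower in number 1 included TFEB and TFE3, with 1.36-fold and 1.23-fold between the numbers, and ASAH1 and ARSA, with 1.22-fold and 1.32-fold. Of the 11 genes with TCACGTG in a promoter window, 9 were higher in both libraries numbered 1 and 1 was lower. Among all 42 tested members, 29 (69.0%) were higher and 10 (23.8%) lower, and whether the motif has a part was not tested.

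**Figure D5:**
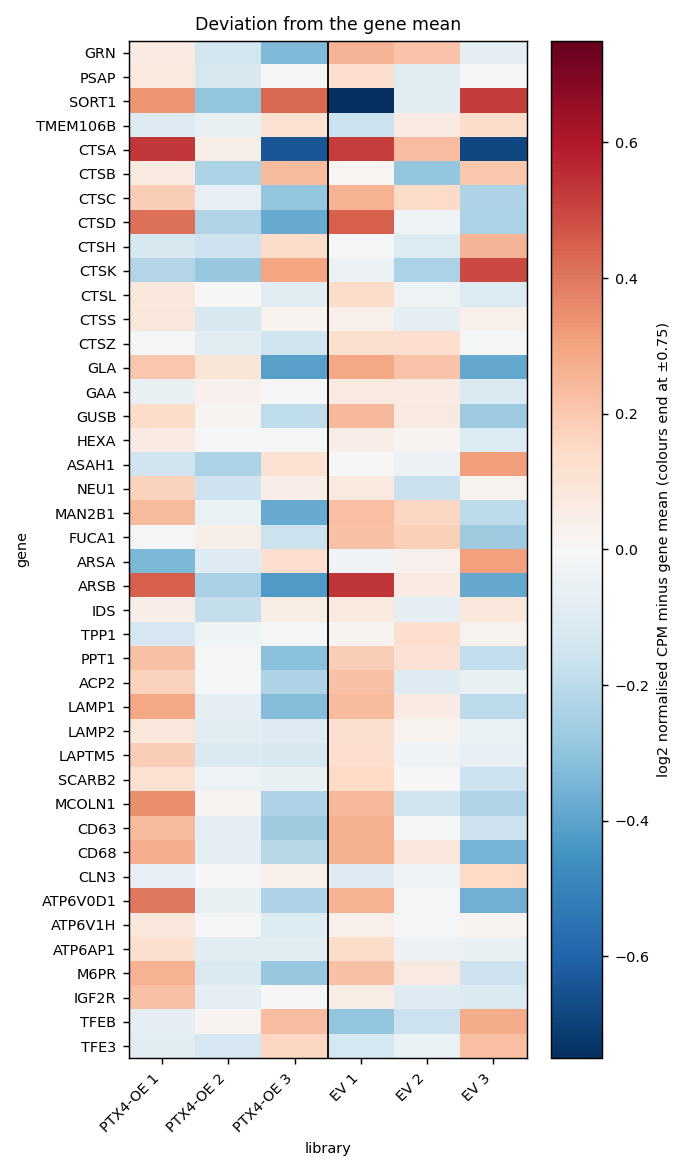
Log2 normalised CPM of the 42 tested lysosomal genes minus the gene's mean over 6 libraries (colour, red above and blue below), with the 3 PTX4-OE libraries left of the 3 EV libraries. Libraries numbered 1 are red and those numbered 3 blue for CTSA, ARSB, CTSD, some other hydrolases and most membrane proteins. TFEB, TFE3 and ARSA are blue in number 1 and red in number 3.

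Further genes of the same pathways, 139 in 5 lists with 128 tested, gave 0 calls in edgeR, DESeq2 and limma-voom, with or without the block. In edgeR at an unadjusted p under 0.05, 5 were higher and 9 lower with the block, where 4.36% of all genes were higher and 4.42% lower. Without it 0 were higher and 1 lower, where 0.238% of all genes were higher and 0.505% lower. With the block 74 of the 128 had negative values, against 48.1% of all genes. Of 39 tested other hydrolases, 30 had negative values with the block and 4 were lower at that unadjusted level, led by PLD4, an endolysosomal exonuclease (-0.23, edgeR adjusted p = 0.317). Of 30 other membrane proteins 16 had negative values, 1 was higher and 2 were lower at that level. The smallest adjusted p in the 5 lists was that of SLC36A1, an amino acid transporter of the lysosome. It was at 6.86, 8.0 and 8.23 TPM in PTX4-OE libraries, against 8.52, 8.68 and 9.33 TPM in EV libraries, without overlap (-0.26 ± 0.06, edgeR adjusted p = 0.0901 with the block).

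Of 19 tested other pump subunits 11 had negative values with the block and 1 was lower at the unadjusted level, ATP6V1G2 (-0.55, edgeR adjusted p = 0.423). Of 28 genes of sorting and lysosome biogenesis 11 had negative values and 2 were higher at that level, led by RPTOR, a subunit of the mTORC1 kinase complex (0.13, edgeR adjusted p = 0.495). Of 12 tested partners of progranulin and prosaposin 6 had negative values, 2 were higher and 2 were lower at that level. The partner with the smallest p was SLPI, the inhibitor that shields progranulin from elastase. It was at 63.8, 18.6 and 7.16 TPM in PTX4-OE libraries, against 71.9, 33.1 and 10.5 TPM in EV libraries, lower in PTX4-OE at each number but spread far more over numbers than over groups (-0.46 ± 0.13, edgeR adjusted p = 0.218 with the block).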

How the data were processed

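Per the labels' protocols, poly(A) RNA of 3 PTX4-OE and 3 EV cultures was sequenced in pairs of reads. Per the submitters' processing notes, FastQC 0.11.5, STAR, featureCounts and GRCh38 were used. The annotation, the strand setting and further versions are not given in the sources used here. Expected counts per gene, which the authors deposited without normalization, were not whole numbers for 7.92% of values. The deposited TPM values had been scaled to gene length and library total. The FPKM values that the authors deposited were likewise scaled, and were used for 1 alternative. Strand is unknown and 24 of the 44 genes are overlapped by another annotated gene (14 have fractional counts, GRN none), so their reads cannot be separated with certainty.

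Coordinates came from GENCODE 44. Of 78686 identifiers, 29 pseudoautosomal pairs were summed. Expected counts were rounded, filtered with filterByExpr (17627 genes), scaled by TMM and tested with edgeR 4.0.16 (R 4.3.3), PTX4-OE over EV, over all genes with Benjamini-Hochberg adjustment and a threshold of 0.05. SEs were derived from each fold change with its F value, with variances moderated across genes. The design had no block. Same-numbered libraries' deviations from group means correlated at 0.632 (number 1), 0.13 (number 2) and 0.699 (number 3), each above the 0.1 required, and unlike numbers at -0.643 to 0.117, so number 2 is close to the limit and EV replicate 2 also passed it with PTX4-OE replicate 1. On this hint from the data, estimates with the block are printed throughout, for many genes without those of the fit that lacks it. The common biological coefficient of variation was 0.217 without and 0.0551 with the block. Alternatives used limma 3.58.1 and DESeq2 1.42.0. The procedure was tested on simulated data. P-values measure only the spread between these libraries.

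Members, lists and tests were chosen with earlier results of these data known. Values per library are given for GRN, PSAP, SORT1 and TMEM106B, for called members and for the 2 members of highest mean TPM per role. From other lists, called genes and the gene with the smallest p are named.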

Additional observations from a re-analysis of the deposited data

How the results depend on the processing

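GRN was called under 8 of the 23 alternatives, each with the replicate block, and no other member was called under any of them. Members called numbered 1 with the block by edgeR, by DESeq2, by limma-voom, with no filter, with RLE size factors and with mitochondrial genes and PTX4 left out. They numbered 0 to 1 when a library or a pair was left out. Over all genes, 1 call without the block stood against 46 with it. DESeq2 made 3 and, with the block, 38 calls. Limma-voom made 0 and, with the block, 66 calls, and at 12.97 its PTX4 log2 fold change had an adjusted p = 0.0566. With no filter there were 2 calls and, with the block, 296, and on log2(TPM + 1) there were 2 with or without it. With the block, RLE size factors gave 48 calls, and leaving out mitochondrial genes and PTX4 gave 45. Both of these last settings were chosen after seeing the data. Leaving out a library gave 1 call without the block, and leaving out pair 1, 2 or 3 with the block gave 88, 32 and 208.

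The members' median log2 fold change was -0.006 on the 4 TPM scales, which moved the median of all genes to 0.037 and 0.040, and from -0.085 to 0.013 without 1 library. The ratio of summed TPM was 0.919 to 1.02 without 1 library. Of 962 member values under alternatives, 954 kept their side of the threshold and 8 passed it (all GRN). None could lose a call, since edgeR without the block had called 0 members. Among values that missed the test both ways, 133 in 33 members changed sign, the largest being 0.199 in size. The replicate block changed no other member's call. The cause of these differences was not tested. Counts were low for SORT1, CTSK, SGSH and ACP5, of which CTSK, SGSH and ACP5 are overlapped by other genes, and 3 libraries a group limit every interval.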
